A study of Mus musculus with 21 samples.

Results

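Potassium channels set the resting potential of the cardiomyocyte and end its action potential, and 9 genes for their subunits were followed here in the mouse left ventricle. They were Kcnd2, Kcnd3 and Kcnip2 of the transient outward current, Kcna5 and Kcnv2 among the other voltage-gated subunits, and the inward rectifier subunits Kcnj2, Kcnj11, Kcnj3 and Kcnj5. Each gene was represented by the probe set annotated to it alone, and by the one with the highest mean over all arrays where a gene had several; each of the 9 had 1. The 9 genes were among 19937 with such a probe set and among 11384 that were tested, that is, whose log2 value reached 5 on at least 3 arrays. All 9 passed that filter, Kcnv2 through 18 of the 21 arrays, Kcnd2, Kcnd3 and Kcnj3 through 20 and the other 5 through all 21. A gene that passes only on the arrays where it is high had to be lower on the others, so the counts below describe the 9 chosen genes and no wider class.

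Left ventricular total RNA of mice aged 9 to 13 weeks was measured on 21 Affymetrix arrays, with 1 sample on each. Mice of the Tg(αMHC-MerCreMer) genotype, called MerCreMer below, carry a tamoxifen-activated Cre recombinase under the cardiomyocyte promoter of α-myosin heavy chain; the labels name no floxed allele in any group. MerCreMer mice received 1 day of control injection, 1 day of tamoxifen, 4 days of control injections or 4 days of tamoxifen, with 3 arrays in each of these groups. Wild-type mice received 4 days of control injections (6 arrays) or 4 days of tamoxifen (3 arrays). Tamoxifen was given intraperitoneally at 40 mg/kg per day, what the control injections contained is not given in the labels, and all tissue was taken 4 days after the last injection. Every group held both sexes, 1 male and 2 female or, in the wild-type controls, 3 and 3. The labels do not say that replicates came from separate animals, so p-values measure only the spread between these samples, which may be technical.

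The channels carried by these genes shape different phases of the mouse action potential. Kv4.2 and Kv4.3, the products of Kcnd2 and Kcnd3, form the pore of the fast transient outward current, and KChIP2, the product of Kcnip2, is the accessory subunit that raises their surface density and tunes their gating. Kv1.5, from Kcna5, carries an ultrarapid delayed rectifier current, and the product of Kcnv2 is a silent subunit that forms channels only together with other voltage-gated subunits. Kir2.1, from Kcnj2, carries the inward rectifier current that holds the resting potential, Kir6.2, from Kcnj11, is the pore of the ATP-sensitive channel, and Kir3.1 and Kir3.4, from Kcnj3 and Kcnj5, assemble into the channel that acetylcholine opens through G proteins and that is known best from the atrium.

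RefSeq promoter windows on GRCm38.p6 were available for 7 of the 9 genes. Below are the 250 bases before the annotated start for 4 of them, chosen to set Kcnip2, the gene with the largest mean fall over the 3 tamoxifen arrays, beside its partner Kcnd2, and the Kcnj3 and Kcnj5 pair, whose changes had opposite signs. Capitals mark CACCC, the core letters bound by Krüppel-like factors, on either strand (GGGTG where it lies on the other strand). The windows are chr19:45816064-45816313 on the minus strand for Kcnip2, chr6:21215096-21215345 on the plus strand for Kcnd2, chr2:55435720-55435969 on the plus strand for Kcnj3 and chr9:32344345-32344594 on the minus strand for Kcnj5, and each is printed 5′ to 3′ in the sense of its gene.
Kcnip2: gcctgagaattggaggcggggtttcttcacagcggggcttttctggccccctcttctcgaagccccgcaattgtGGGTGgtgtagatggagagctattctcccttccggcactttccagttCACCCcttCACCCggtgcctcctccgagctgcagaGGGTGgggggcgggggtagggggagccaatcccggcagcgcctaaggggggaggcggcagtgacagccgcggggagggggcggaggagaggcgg
Kcnd2: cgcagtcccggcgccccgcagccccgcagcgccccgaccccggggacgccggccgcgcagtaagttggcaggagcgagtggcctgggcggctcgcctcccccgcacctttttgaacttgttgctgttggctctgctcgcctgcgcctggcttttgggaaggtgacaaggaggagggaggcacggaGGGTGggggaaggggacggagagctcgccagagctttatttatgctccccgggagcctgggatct
Kcnj3: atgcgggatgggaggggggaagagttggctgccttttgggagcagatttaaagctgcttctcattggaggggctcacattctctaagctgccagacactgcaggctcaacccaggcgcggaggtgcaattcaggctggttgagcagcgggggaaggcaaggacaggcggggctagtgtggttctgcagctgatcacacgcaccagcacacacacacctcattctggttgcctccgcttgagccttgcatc
Kcnj5: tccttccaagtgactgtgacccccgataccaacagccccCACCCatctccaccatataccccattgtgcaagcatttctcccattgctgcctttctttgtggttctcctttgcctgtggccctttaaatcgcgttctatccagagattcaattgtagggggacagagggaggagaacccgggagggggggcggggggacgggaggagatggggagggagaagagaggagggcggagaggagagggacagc
The Kcnip2 window held CACCC 4 times, with first bases at -176, -129, -121 and -94 from the start, the pair at -129 and -121 on the strand of the gene and the other two on the opposite strand. The windows of Kcnd2 and Kcnj5 held it once each, and that of Kcnj3 did not hold it. Of the windows not printed, those of Kcnd3 and Kcna5 held it 2 times and that of Kcnj2 held it once. In all, 6 of the 7 windows held these letters, against 52% of the 32851 RefSeq windows of this length searched, so their presence is common. The TATA box, searched as TATAAA on both strands, was in 0 of the 7 windows and in 12.4% of all windows. AGATAA, letters that cardiac zinc finger factors bind, was in 0 of the 7 and in 9.99% of all windows. The half-site of oestrogen-related receptors, AAGGTCA, was in 0 of the 7 and in 4.08% of all windows. The 7 windows were 53.2% to 68.8% G and C, above the median of 52.4% over all windows. A match of letters is not a measured site, and nothing in these data measured binding.

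After 4 days of tamoxifen, 7 of the 9 genes were lower in MerCreMer ventricles than after 4 control injections and 1, Kcnj5, was higher; Kcna5 was not called. The falls were in RNA of Kcnv2 and of subunit genes of the transient outward, inward rectifier, ATP-sensitive and acetylcholine-sensitive channels. Changes ran from -0.81 log2 units in Kcnd3 to -2.30 in Kcnip2. The arrays measured no channel protein or current. A call is an adjusted p under 0.05 from limma, with Benjamini-Hochberg adjustment over the 11384 genes. In this comparison 23.3% of all genes tested were called, 9.41% lower and 13.9% higher. The values of the 2 groups did not overlap for 8 of the 9 genes, 7 of them lower, against 27.9% of all genes tested (11.3% lower). The median change of the 9 was -1.12 log2 units, beside 0.01 over all genes tested. With the tamoxifen array that stood furthest apart (replicate 3, described below) left out, the same count was 8 of 9, with 7 lower and 1 higher and a median of -0.52, beside 16.5% of all genes tested. With only the 6 arrays of these 2 groups in the fit the changes were the same. Then 1 of 9 was called, Kcnv2 (limma adjusted p = 0.0397), beside 18 of all 11384 genes tested. The limma adjusted p of the other 7 genes called over all arrays was 0.174 to 0.371. Kcnv2 passed the filter only through the 18 arrays outside the MerCreMer 4 tamoxifen group. Its tamoxifen values lay under the array medians, where their likeness, and so this call, cannot be read closely.

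**Figure D1:**
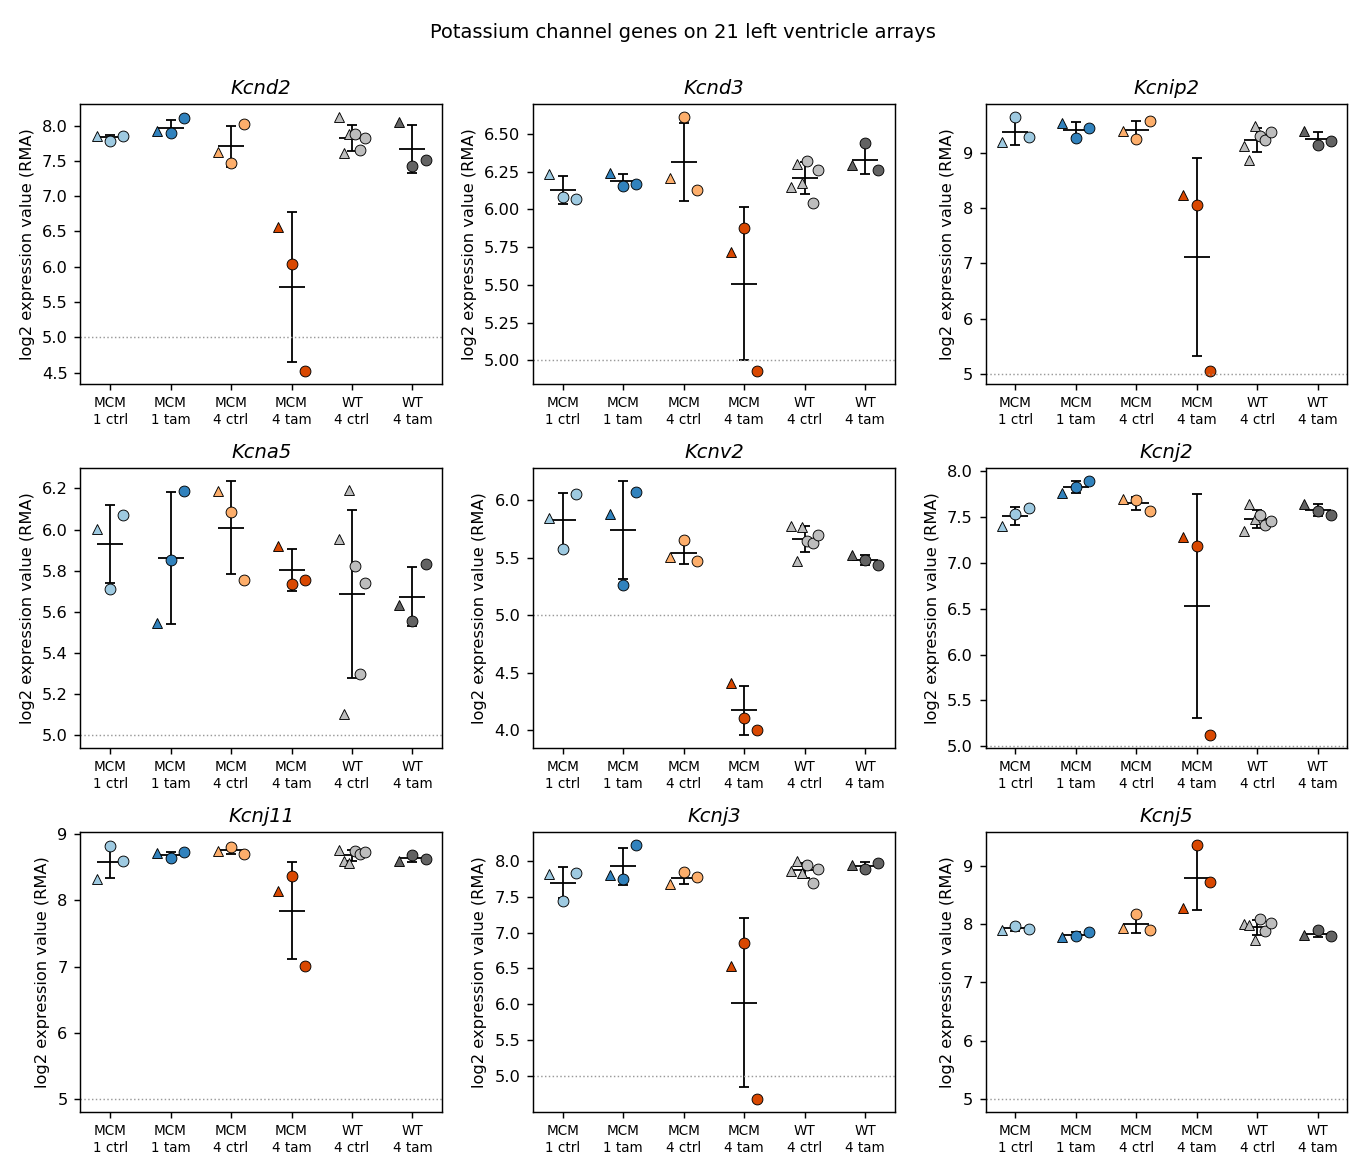
Deposited log2 expression value (vertical axis, a separate range in each panel) of the 9 potassium channel genes on the 21 arrays, by group (MCM, MerCreMer; WT, wild type; 1 or 4, injection days; ctrl, control; tam, tamoxifen). Triangles are male and circles female samples, bars show the mean ± SD, and the dotted line marks the log2 value of 5 used as filter; the MerCreMer 4 tamoxifen arrays lie below all 18 others for 6 of the 9 genes and above them for Kcnj5.

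Kcnd2, the gene of a pore subunit of the fast transient outward current, fell strongly. Its log2 values on the 3 MerCreMer 4 tamoxifen arrays were 6.57, 6.04 and 4.52, against 7.63, 7.47 and 8.03 on the MerCreMer 4 control arrays. All 3 treated arrays lay below each of the 18 other arrays, which ran from 7.42 to 8.12. The change was -2.0 log2 units, a fold of 0.251 (SE 0.31, 95% interval -2.65 to -1.34, limma adjusted p = 2.45e-04), and -1.43 without replicate 3, still called.

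Kcnd3, which encodes the other pore subunit of the same current, fell less. It read 5.72, 5.88 and 4.93 after tamoxifen and 6.21, 6.61 and 6.13 after control injections. Here too the treated arrays were below all 18 others, whose lowest value was 6.05. The change was -0.81 log2 units (SE 0.17, 95% interval -1.17 to -0.45, limma adjusted p = 0.00309), and -0.52 without replicate 3, still called.

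Over all 3 tamoxifen arrays Kcnip2 had the largest change of the 9 and the widest spread, but this order rested on replicate 3. Its values after 4 days of tamoxifen were 8.24, 8.05 and 5.05, with a mean of 7.11 ± 1.79 (SD, n = 3), against 9.40, 9.25 and 9.58, or 9.41 ± 0.16 (SD, n = 3), after control injections. Minus the control mean, replicates 1 and 2 were at -1.17 and -1.36 and replicate 3 was at -4.36, so 1 array carried most of the mean difference. The change was -2.30 log2 units (SE 0.50, 95% interval -3.35 to -1.25, limma adjusted p = 0.0035). Without replicate 3 it was -1.27, still called, and then smaller in size than those of Kcnd2 (-1.43) and Kcnv2 (-1.30).

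Kcna5 is the voltage-gated pore gene of the 9 that was not called. It read 5.92, 5.73 and 5.75 after 4 days of tamoxifen and 6.19, 6.08 and 5.76 after control injections, and these ranges overlapped. The change was -0.21 log2 units, with a 95% interval from -0.67 to 0.26 (limma adjusted p = 0.532), so a fall as large as the median of the 9 lies outside the interval and one like that of Kcnj2 without replicate 3 lies inside it. Its wild-type control values were spread from 5.10 to 6.19, wider than those of any other of the 9 in that group. On replicate 3, the lowest array for the 7 genes that fell, Kcna5 minus the control mean was -0.25.

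Kcnv2, the silent subunit, fell to values below the array medians. It read 4.41, 4.10 and 4.00 after 4 days of tamoxifen, against 5.50, 5.66 and 5.47 after control injections and 5.26 to 6.08 over all 18 other arrays. All 3 treated values were under the log2 value of 5 used as filter and under the medians of the arrays, 4.57 to 4.72. At values this low neither the size of the fall nor the likeness of the 3 arrays can be read closely. The change was -1.37 log2 units (SE 0.16, 95% interval -1.71 to -1.04, limma adjusted p = 1.66e-05). Without replicate 3 it was -1.30, from values that were also this low.

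Kcnj2, the gene of the classical inward rectifier, had the least secure call. It read 7.29, 7.19 and 5.12 after 4 days of tamoxifen and 7.69, 7.69 and 7.57 after control injections. The 3 treated values were below all 18 others, but replicates 1 and 2 only by a small margin, since the lowest of those 18 was 7.35. The change was -1.12 log2 units (SE 0.34, 95% interval -1.82 to -0.41, limma adjusted p = 0.0234), and without replicate 3 it was -0.41, still called. The call was lost when any single MerCreMer 4 control array was left out, with limma adjusted p from 0.0569 to 0.0665.

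Kcnj11 behaved in a like way on the 3 arrays. It read 8.15, 8.37 and 7.0 after 4 days of tamoxifen and 8.75, 8.81 and 8.70 after control injections. Of the treated arrays, 2 lay below all 18 others and replicate 2 lay just above the lowest of them, a MerCreMer 1 control array at 8.32. The change was -0.91 log2 units (SE 0.22, 95% interval -1.38 to -0.45, limma adjusted p = 0.00715), and -0.48 without replicate 3, still called.

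Kcnj3 and Kcnj5, whose products assemble into 1 channel, had changes of opposite sign. Kcnj3 read 6.54, 6.85 and 4.68 after 4 days of tamoxifen and 7.67, 7.84 and 7.77 after control injections, and all 18 other arrays lay between 7.44 and 8.22. Its change was -1.74 log2 units (SE 0.34, 95% interval -2.45 to -1.03, limma adjusted p = 0.00152), and -1.06 without replicate 3. Kcnj5 read 8.27, 9.35 and 8.72 after tamoxifen and 7.92, 8.18 and 7.90 after control injections. All 3 treated values were above each of the 18 others, though replicate 1 exceeded the highest of them, 8.18, by little. The change of Kcnj5 was 0.78 log2 units, a fold of 1.72 (SE 0.16, 95% interval 0.45 to 1.11, limma adjusted p = 0.00203). Leaving out replicate 2, the highest, gave 0.51, and leaving out replicate 3 gave 0.84, both called.

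The 3 MerCreMer 4 tamoxifen arrays differed from each other more than the arrays of any other group. Over all genes tested the correlation between pairs of them was 0.918 to 0.974, against 0.982 or more within the other groups, and their residual variance was 0.106, against 0.0153 to 0.0221. Replicate 3 was the lowest array of the 3 for all 7 genes that fell, with values minus the control mean from -1.39 in Kcnd3 to -4.36 in Kcnip2. On it Kcnd2 (4.52), Kcnj3 (4.68), Kcnd3 (4.93), Kcnip2 (5.05) and Kcnj2 (5.12) were near or under the filter value of 5, like Kcnv2 (4.00). The size of their falls on that array, and so of their mean changes, cannot be read closely. Replicates 1 and 2 were nearer each other, at -0.36 to -1.67 for the same 7 genes. Kcnj5 did not follow this order, with replicate 2 the highest at 1.35 above the control mean, replicate 3 at 0.72 and replicate 1 at 0.27.

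**Figure D2:**
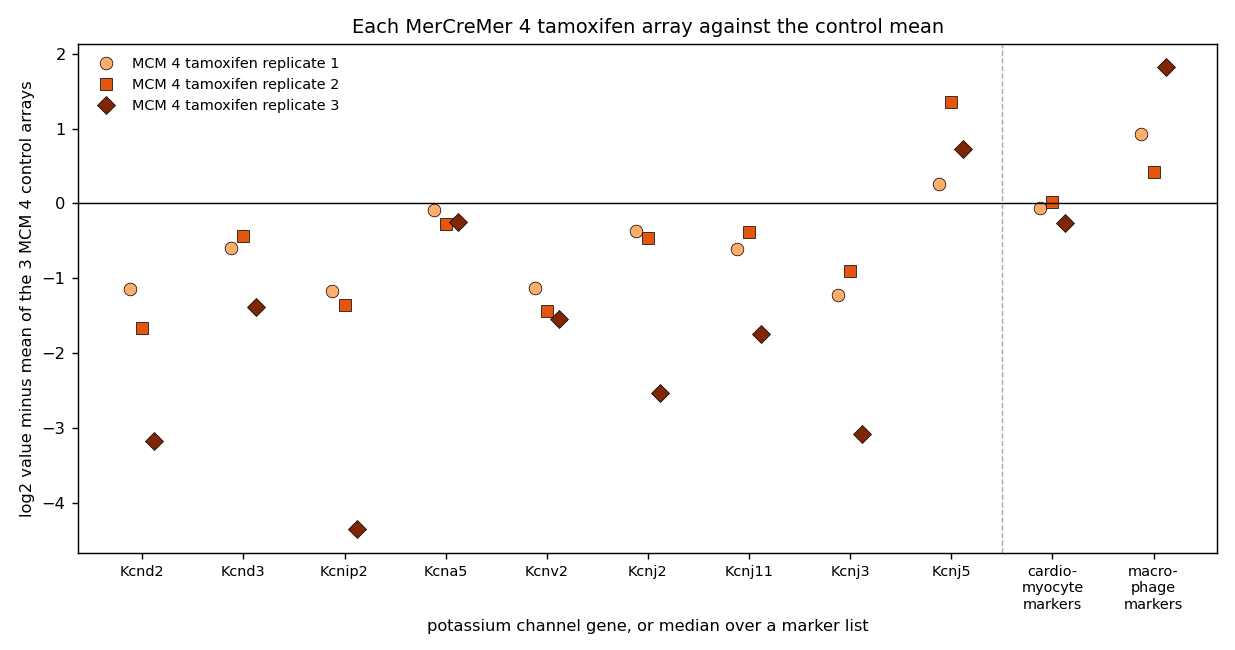
Log2 value on each of the 3 MerCreMer 4 tamoxifen arrays minus the mean of the 3 MerCreMer 4 control arrays (vertical axis, log2 units) for the 9 potassium channel genes and, to the right of the dashed line, the median over the cardiomyocyte and the macrophage markers. Replicate 3 is lowest for the 7 genes that fell, at -4.36 for Kcnip2 and -2.53 for Kcnj2, and highest for the macrophage markers at 1.82.

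Among the markers of other cell types, those of macrophages moved with these values. Macrophage markers were higher in MerCreMer ventricles after 4 days of tamoxifen for 14 of the 14 that were tested (15 in the list, median change 1.02), and their mean log2 level was 7.05, 6.54 and 8.07 on the 3 arrays, against 6.09 to 6.43 on the 18 others, so it was highest on the array where the channel genes were lowest. Cardiomyocyte markers were called lower for 4 of 16 (Ryr2, Pln, Ttn and Tcap) and higher for 0, with a median change of -0.11; their mean level was 11.52 on replicate 3 and 11.89 or higher on the other two tamoxifen arrays, against 12.05 to 12.13 elsewhere. Myh6, a marker of cardiomyocytes of atrium and ventricle, and Myl2, a marker of ventricular ones, read 12.38 to 12.73 and 12.25 to 12.57 over all arrays. Both were lowest on replicate 3, where the lowest of the 18 other arrays read 12.58 and 12.38. Tnni3, of the same list, read 10.97 on replicate 3 and 11.74 to 11.92 on the 18 others. Of the other lists, 1 of 9 fibroblast markers and 3 of 10 endothelial markers were lower, 1 of 7 smooth muscle and pericyte markers was higher, and the 1 glial marker tested was not called. Among all genes tested, 9.41% were lower and 13.9% higher. Without replicate 3 the macrophage markers were higher for 12 of 14 with a median change of 0.67, the cardiomyocyte markers lower for 3 of 16 and higher for 1, and the endothelial markers lower for 1 of 10. The shares of all genes tested were then 5.77% lower and 10.7% higher. In bulk tissue, fewer cells of a type and less RNA per cell cannot be told apart, and the part of cell composition in the changes of the channel genes was not tested.

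Atrial markers, given here because the channel of Kcnj3 and Kcnj5 is abundant in the atrium, varied widely between arrays outside the tamoxifen group as well. The atrial light chain Myl7 read 4.07, 4.72 and 5.04 on the MerCreMer 4 tamoxifen arrays and 8.11 to 8.60 on the MerCreMer 4 control arrays, but 4.03 to 8.93 over all 18 other arrays. Myl4 read 6.73 to 7.32 on the tamoxifen arrays, 8.99 to 9.45 on the controls and 5.63 to 9.59 over all 18 others. Of 5 atrial markers tested (7 in the list), 1 was called lower, Myl7, and 0 were called higher. Changes in the list ran from -3.77 to 1.02 log2 units. Nppa, also in the list, read 10.52, 11.95 and 12.59 on the tamoxifen arrays and 10.52 to 10.81 on the controls. Over all 18 others it read 9.14 to 11.17. Over the same 18 arrays Kcnj3 stayed between 7.44 and 8.22 and Kcnj5 between 7.73 and 8.18. The part of atrial tissue in the changes of Kcnj3 and Kcnj5 was not tested.

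A probe set with no gene annotation divided the arrays into 13 with a value of 11.22 to 11.36 and 8 with a value of 11.47 to 11.52, a division that the labels do not mention and that was noticed in the data. Every MerCreMer group held 1 array on the low side and 2 on the high side, and all 9 wild-type arrays were on the low side. Within the high side, which holds tamoxifen replicates 1 and 3, a fit without sex gave changes of -2.77 for Kcnip2, -2.20 for Kcnd2, -2.20 for Kcnj3, -1.36 for Kcnv2 and 0.46 for Kcnj5, with Kcnv2 alone called (limma adjusted p = 0.0318). That call rests on tamoxifen values of Kcnv2 under the array medians. Within the low side, which holds replicate 2, the changes were -1.35 for Kcnip2, -1.59 for Kcnd2, -0.82 for Kcnj3, -1.40 for Kcnv2 and 1.43 for Kcnj5. On that side each MerCreMer group is 1 array, so the spread in the fit comes from the 9 wild-type arrays alone and the lone arrays are assumed to vary like them. The calls there, 5 of 9 with or without sex, rest on that assumption, while the MerCreMer 4 tamoxifen arrays as a group varied more than those of any other. Without sex in the fit, Kcnd3, Kcnj2 and Kcnj11 were not called on the high side, at -1.05, -1.43 and -1.18. On the low side their changes were -0.33, -0.51 and -0.38. With sex kept in the fit, 6 of 9 were called on the high side, but that side holds no male control array. Kcnd3 (-1.26) and Kcnj11 (-1.46) were among those 6, and Kcnj2 was not. All 8 genes called over all arrays kept their sign on both sides. With the division as a term in the fit of all 21 arrays, 8 of 9 were called. The count over all genes in that fit alone is not given here, so the 8 cannot be set against it. Over the 16 alternatives other than leaving out an array, the count over all genes ran from 18 to 2723. The counts over all genes in the fits of 1 side are in the last section.

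After a single day of tamoxifen none of the 9 genes was called in MerCreMer mice. Changes ran from -0.11 to 0.32 log2 units, and the limma adjusted p was 1.00 for each. In all, 1 gene was called among all 11384 (0.00878%), and 380 had an unadjusted p under 0.05, none of them one of the 9. Kcnj2 had the largest difference, at 7.77, 7.83 and 7.89 after 1 day of tamoxifen and 7.41, 7.53 and 7.60 after 1 control injection, a change of 0.32 (95% interval -0.39 to 1.02). The values of the 2 groups did not overlap for 3 of the 9 genes, Kcnj2 and Kcnd2 with higher values and Kcnj5 with lower ones, against 10.4% of all genes tested (6.88% higher and 3.51% lower). The 95% intervals still allowed changes as large as -1.01 and 1.09 in Kcnip2, whose pooled spread includes the wide MerCreMer 4 tamoxifen group.

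Wild-type mice given 4 days of tamoxifen did not differ detectably from wild-type controls in any of the 9 genes. Changes ran from -0.17 in Kcnv2 to 0.13 in Kcnd3, 0 of 9 were called by limma and 0 of 9 had groups that did not overlap, against 3.42% of all genes tested (1.73% higher, 1.69% lower). Over all 11384 genes 0 (0%) were called and 295 had an unadjusted p under 0.05. For Kcnj5 the 3 tamoxifen arrays read 7.81, 7.89 and 7.79 and the 6 control arrays 7.73 to 8.08 with a median of 7.99. Kcnv2 read 5.53, 5.48 and 5.43 after tamoxifen and 5.47 to 5.77 with a median of 5.67 after control injections. In both genes the ranges overlapped and the wild-type tamoxifen arrays lay away from the MerCreMer 4 tamoxifen arrays.

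**Figure D3:**
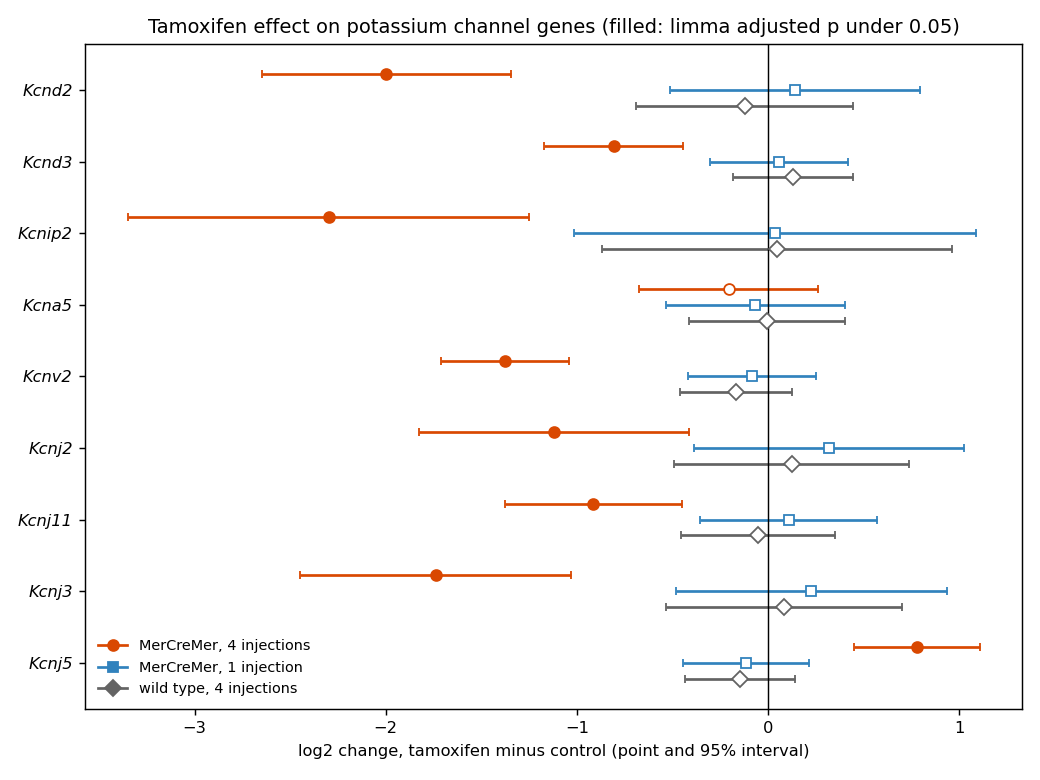
Log2 change, tamoxifen minus matching control (horizontal axis; point and 95% interval from limma), of the 9 potassium channel genes after 4 days of tamoxifen in MerCreMer mice, 1 day in MerCreMer mice and 4 days in wild-type mice; filled points have an adjusted p under 0.05. The 8 filled points belong to 4 days of tamoxifen in MerCreMer mice, and each interval of the other two comparisons includes 0.

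The difference between the tamoxifen effects in MerCreMer and in wild-type mice was tested as an interaction. It was called for 6 of 9 genes, 5 lower and 1 higher, against 7.98% of all genes tested (3.53% lower and 4.45% higher). The MerCreMer effect minus the wild-type effect was -1.87 log2 units in Kcnd2 (limma adjusted p = 0.00958), -0.94 in Kcnd3 (0.0174), -2.35 in Kcnip2 (0.0365), -1.82 in Kcnj3 (0.0182) and -1.21 in Kcnv2 (0.00208). For Kcnj5 it was 0.93 (adjusted p = 0.0109). The differences of -1.24 in Kcnj2 (adjusted p = 0.0927), -0.86 in Kcnj11 (0.0763) and -0.20 in Kcna5 (0.72) were not called. The count was 4 to 8 when single arrays were left out, and with MerCreMer 4 tamoxifen replicate 3 left out Kcnj2 (-0.51, adjusted p = 0.00594) and Kcnj11 (-0.41, 0.047) were called too. Without that array the difference in Kcnip2 was -1.28, in Kcnj3 -1.12 and in Kcnd2 -1.28, all still called. With only the arrays of the groups compared 3 of 9 were called (Kcnd2, Kcnj5 and Kcnv2), and in female arrays 1 of 9. Fewer of all genes were called in these fits too, with counts in the last section. With the replicate number as a block in the fit 0 of 9 were called, beside 27 of all genes tested. All wild-type arrays lay on the low side of the array division. Within that side the count was 6 of 9 without sex in the fit and 4 with it, again with 1 array in each MerCreMer group and the spread taken from the wild-type arrays.

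The difference between the effects of 4 and of 1 injection day in MerCreMer mice was called for 5 of 9 genes, 4 lower and 1 higher, against 5.78% of all genes tested (3% lower and 2.78% higher). The effect of 4 days minus that of 1 day was -2.14 log2 units in Kcnd2 (limma adjusted p = 0.00758), -0.86 in Kcnd3 (0.044), -1.97 in Kcnj3 (0.0215) and -1.29 in Kcnv2 (0.00238), and 0.89 in Kcnj5 (0.0244). The differences of -2.34 in Kcnip2 (adjusted p = 0.059), -1.44 in Kcnj2 (0.0806), -1.02 in Kcnj11 (0.0611) and -0.14 in Kcna5 (0.82) were not called. This count moved with single arrays: it was 8 with any MerCreMer 4 tamoxifen array left out, and 2 when replicate 3 of the 1 tamoxifen or of the 4 control group was left out. It was 3 when replicate 2 of the 1 tamoxifen group or replicate 1 or 2 of the 1 control group was left out. Without replicate 3 of the 4 tamoxifen group the difference was -1.29 in Kcnj3 and -0.57 in Kcnd3, both still called. With only the arrays of the groups compared 0 of 9 were called by limma, with adjusted p from 0.0633 in Kcnv2 to 0.806 in Kcna5, and in female arrays 1 was. The last section gives the lower counts over all genes in these fits. On the high side of the array division the count was 0, and on the low side, where each MerCreMer group is 1 array, it was 2.

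Without tamoxifen no difference between groups was called in the 9 genes. MerCreMer mice after 4 control injections differed from wild-type controls by -0.10 to 0.33 log2 units; 0 of 9 were called by limma and 0 of 9 had groups that did not overlap, against 0.676% called and 12.5% without overlap (8.49% higher, 4.05% lower) among all genes tested. The largest of these differences was 0.33 in Kcna5 (adjusted p = 0.434). MerCreMer mice after 4 and after 1 control injections differed by -0.28 (Kcnv2) to 0.19 (Kcnd3), with 0 of 9 called by limma among 0 genes called in all and 375 at an unadjusted p under 0.05; the share of all genes whose groups did not overlap was 9.79% (5.67% higher, 4.12% lower), and 0 of the 9 did not overlap. Over the 5 groups other than MerCreMer 4 tamoxifen, group means of 1 gene differed by 0.17 (Kcnj11) to 0.35 (Kcnj2 and Kcnv2) log2 units, beside a pooled SD within groups of 0.08 (Kcnj2) to 0.27 (Kcna5). With the 5 groups ranked by level, each of the 4 gaps between neighbours was smaller than that SD in 8 of the 9 genes. The exception was Kcnj2, with 1 gap of 0.18 between 1 day of tamoxifen and the MerCreMer 4 controls. For Kcnj2 the order ran from 7.83 ± 0.06 (SD, n = 3) after 1 day of tamoxifen through 7.65 ± 0.07 in the MerCreMer 4 controls, 7.58 ± 0.06 in wild-type mice after tamoxifen and 7.51 ± 0.10 in the MerCreMer 1 controls to 7.48 ± 0.10 (n = 6) in the wild-type controls. Sex made no called difference in any of the 9 genes, with the lowest limma adjusted p, 0.562, in Kcnj5. How many of all genes tested were called for sex is not given here, so the 9 cannot be set against them.

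Of 86 further potassium channel genes, 81 had a probe set of their own and 24 passed the filter. In MerCreMer ventricles after 4 days of tamoxifen 5 of the 24 were lower, 2 were higher and 17 were not called, with a median change of -0.18 log2 units. The shares of all genes tested were 9.41% lower, 13.9% higher and 23.3% called. The share of the 24 called in either direction was thus near that of all genes. By direction, the share lower was above that of all genes and the share higher was below it. Kcnq1, the pore of the slow delayed rectifier, had the smallest adjusted p: it read 7.22, 7.35 and 7.71 after tamoxifen and 7.90 to 8.04 in the controls, a change of -0.57 (SE 0.08, limma adjusted p = 1.51e-04). In this gene replicate 3 was the least affected array, unlike in the 7 genes that fell. Kcnq1 was also the 1 gene of the 24 called in both interactions, at -0.59 against wild type (adjusted p = 0.00343) and -0.73 for 4 against 1 day (0.00132).

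The sulphonylurea receptors, which form the ATP-sensitive channel with Kcnj11, were not both called. Abcc8 was lower by 0.72 log2 units (limma adjusted p = 0.0109), at 7.05, 7.39 and 6.31 against 7.53 to 7.76. Abcc9, the receptor of the ventricular channel, was not called at -0.39 (adjusted p = 0.176), and on replicates 1 and 2 it lay at 10.40 and 10.54, on either side of the control range of 10.42 to 10.47, with 9.25 on replicate 3. Without replicate 3 its change was 0.02. Kcnj8, the other pore gene of ATP-sensitive channels, was not called at -0.27 (adjusted p = 0.0603).

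Among the remaining families, the calcium-activated channel genes Kcnn1 and Kcnn2 were lower by 0.55 and 0.71 log2 units (limma adjusted p = 0.00371 and 0.0346), and Kcnk3, a background channel of the 2-pore family, by 0.43 (0.0182). Kcna4, the pore gene of the slow transient outward current, was higher by 0.59 (adjusted p = 0.0382), at 4.91, 5.38 and 5.66 against 4.52 to 4.93, so its ranges overlapped and its values were near the filter. Kcnk6, another gene of the 2-pore family, was higher by 0.50 (adjusted p = 0.0344). Without tamoxifen replicate 3 the count over the 24 genes was 5 lower and 1 higher, or 20.8% and 4.17%. Among all genes tested 5.77% were then lower and 10.7% higher. The channel genes called were not the same. Kcnq1, Abcc8 and Kcnn1 were called again at -0.67, -0.38 and -0.38. Kcng2 (-0.35) and Kcnk2 (-0.34) were newly lower, and Kcnh2, of the rapid delayed rectifier, was newly higher at 0.38. Kcnn2 (-0.28), Kcnk3 (-0.25), Kcna4 (0.44) and Kcnk6 (0.35) were then not called. None of the 24 was called by limma in the comparisons of 1 day of tamoxifen, of wild-type tamoxifen, of genotype or of the controls. The 57 genes under the filter reached at most 5.80 on any array and were not tested.

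**Figure D4:**
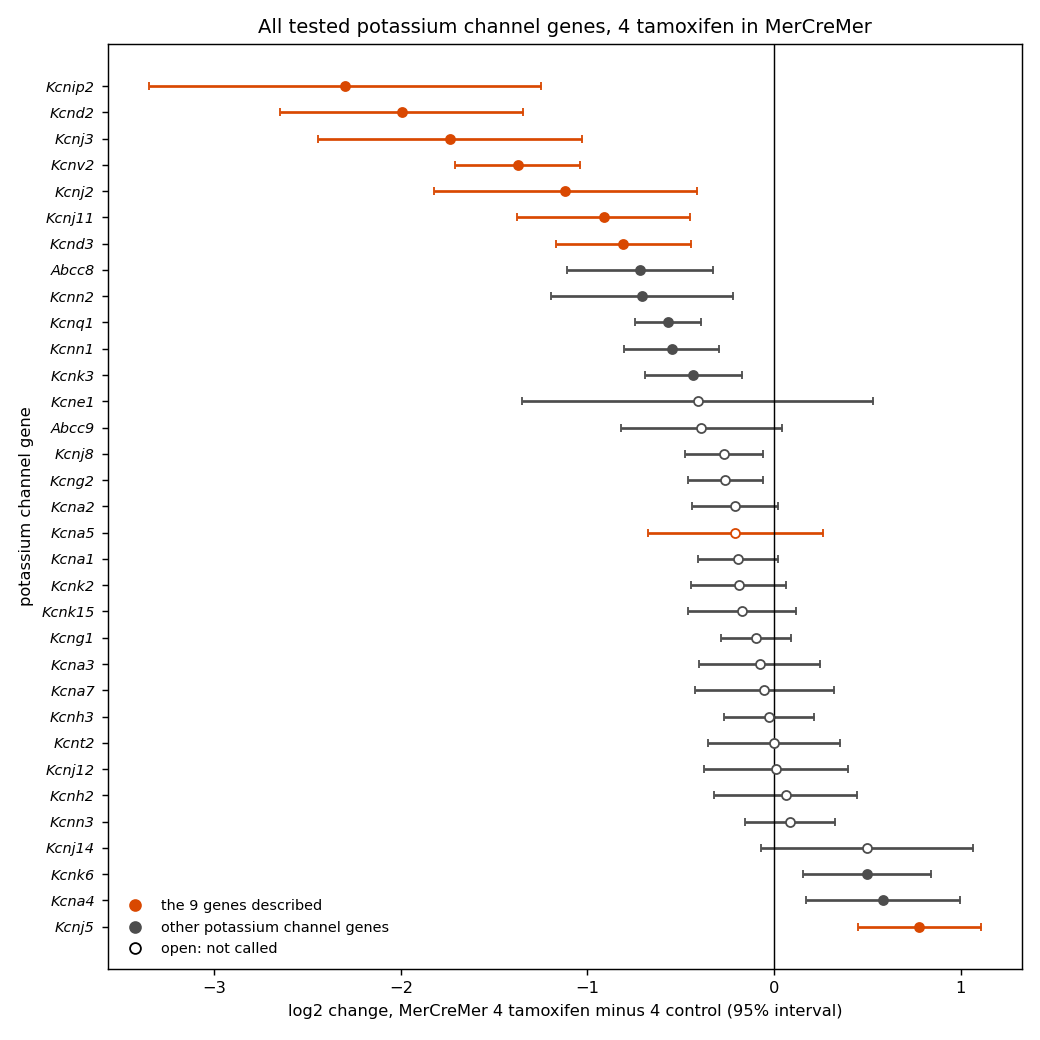
Log2 change after 4 days of tamoxifen in MerCreMer mice against control injections (horizontal axis; point and 95% interval from limma) for the 9 potassium channel genes and the 24 further ones tested, in order of change; filled points have an adjusted p under 0.05. The 7 lowest points are all among the 9 genes described, and Kcnj5 is the highest point at 0.78.

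Genes whose products bind or place these channels in the membrane changed in both directions. Of 10 tested (12 in the list), 5 were lower and 2 higher in MerCreMer ventricles after 4 days of tamoxifen, against 9.41% lower and 13.9% higher among all genes tested. Fhl2, a LIM protein that binds channel subunits, was lower by 0.96 log2 units (limma adjusted p = 6.76e-07), with 10.64, 10.82 and 10.46 against 11.53 to 11.65. The ankyrin genes Ank2 and Ank3, which anchor membrane proteins, were lower by 0.83 and 0.31, and Dlg1, whose product SAP97 clusters Kir2 and Kv channels, by 0.32. The actin-binding proteins cortactin (Cttn) and filamin A (Flna) were higher by 0.90 and 0.70, and both were highest on replicate 3. Without replicate 3 the count was 4 lower and 1 higher, against 5.77% and 10.7% of all genes tested. Flna (0.28, limma adjusted p = 0.0859) and Nedd4l (-0.25, 0.0895) were then not called, and the changes of Ank2 and Cttn were -0.50 and 0.58.

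Of 15 transcriptional regulators tied to cardiac ion channel or energy genes, all tested, 8 were lower and 0 higher, with a median change of -0.48 log2 units, against 9.41% lower and 13.9% higher among all genes tested. Mef2c, a core cardiac transcription factor, was lower by 0.66 (limma adjusted p = 1.48e-06), with 7.40, 7.33 and 7.38 against 7.92 to 8.11, and had nearly the same value on the 3 tamoxifen arrays. Esrrg and Ppargc1a, regulators of mitochondrial genes, were lower by 1.00 and 1.34 (adjusted p = 8.92e-06 and 4.16e-04). Klf15, a Krüppel-like factor known as a regulator of Kcnip2 in the mouse heart, was lower by 1.07 (adjusted p = 4.84e-04), at 7.01, 7.15 and 6.31 against 7.81 to 8.01. Etv1 and Irx4 were lower by 0.66 and 0.54 (adjusted p = 0.00219 and 0.013). Without replicate 3 the count was 8 lower and 0 higher too, with a median of -0.48, against 5.77% lower and 10.7% higher among all genes tested. The genes differed in part: Irx4 (-0.33, limma adjusted p = 0.0663) and Esrra (-0.24, 0.0728) were then not called, and Gata4 (-0.41, 0.0265) and Tbx20 (-0.48, 0.00379) were newly lower.

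The 7 genes that fell are those that were low on the same 3 arrays, so a high correlation among them over all 21 arrays follows from how they were picked. The Pearson correlation of their log2 values, over the 21 pairs of genes, was 0.69 to 0.95 on all 21 arrays, and -0.52 to 0.42 with a median of 0.16 on the 18 arrays without MerCreMer 4 tamoxifen. The points share arrays and their normalisation, so these values are a description. The genes tested whose values were most like those of a channel gene over the 21 arrays were Txlnb (r = 0.98), Asb14 and Pxmp2 for Kcnip2, Rbfox1 (0.98), Asb14 and Ryr2 for Kcnd2, and Nebl (0.98), Asb14 and Txlnb for Kcnj3. They were Kcnj3 (0.93), Atg10 and Nos1ap for Kcnd3, Smco1 (0.97), Hrc and Cabcoco1 for Kcnj2, and Idh2 (0.97), Hsd17b10 and Mgrn1 for Kcnj11. For Kcnv2 they were Itgb6 (0.96), Stc2 and Sgcd, and for Kcnj5 they were Sestd1 (0.92), Nt5e and Naa35. Without the 3 MerCreMer 4 tamoxifen arrays each of these correlations was lower, as in Ryr2 with Kcnd2 (from 0.96 to -0.05) and Txlnb with Kcnip2 (from 0.98 to 0.19), and less so in Stc2 with Kcnv2 (from 0.95 to 0.78) and Rbfox1 with Kcnd2 (from 0.98 to 0.71).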

How the data were processed

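The deposited values were log2 expression values of 34760 probe sets on 21 arrays, made by the authors with RMA, per the submitters' processing notes; its version, the software that ran it and any array batches were not given in the sources used here. Array medians of 4.57 to 4.72 were nearly equal, and the values were used with no further scaling. RMA with joint normalisation removes a shift shared by most genes. Probe sets were named through the platform annotation: 21640 had 1 gene, 1321 several and 11799 no entry, and only the first kind was used. The number of arrays limits the precision.

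limma 3.58.1 in R 4.3.3 (lmFit and eBayes) was fitted to all genes tested on all 21 arrays, with 6 group means and sex, 14 residual and 3.98 prior degrees of freedom. It shared 1 estimate of the spread over the groups. The MerCreMer 4 tamoxifen arrays varied more over all genes (residual variance 0.106) than the other groups (0.0153 to 0.0221). The shared estimate is therefore likely too small for comparisons that use this group and too large for the others. Intervals and adjusted p of the former are likely too narrow and too low. The fit was tested on simulated data in which every array of a gene had the same spread. That test cannot tell how the fit does where 1 group varies more, as the MerCreMer 4 tamoxifen arrays did. Group means are of log2 values, and a fold is 2 to the power of a log2 change, so it is a geometric mean ratio.

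The 9 genes and all lists were chosen with earlier results of these data known. Named genes beyond the 9 were potassium channel genes called in any comparison (at most 8 per comparison by adjusted p), up to 6 called partners and 6 called regulators in MerCreMer mice after 4 tamoxifen against 4 control injections, and the 3 genes most like each called channel gene. Markers, uncalled channel genes shown beside a partner, and genes called without replicate 3 were named after their values were seen. Alternatives were no sex term, array or group weights, only the arrays compared, females only, a second quantile normalisation, other filters (6 in place of 5, or none), mean of probe sets, a trended robust prior, the replicate number as a block, each array left out, and the array division as a block or taken 1 side at a time.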

Additional observations from a re-analysis of the deposited data

Results flagged for a closer look

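For 6 of the 9 genes the tamoxifen effect after 4 injection days differed between MerCreMer and wild-type mice by limma's test of that difference. The difference (MerCreMer minus wild type, log2) was -1.87 in Kcnd2, -0.94 in Kcnd3, -2.35 in Kcnip2, -1.82 in Kcnj3, 0.93 in Kcnj5 and -1.21 in Kcnv2. For 5 genes the effect in MerCreMer mice differed between 4 and 1 injection days by the same kind of test. That difference (4 minus 1 days, log2) was -2.14 in Kcnd2, -0.86 in Kcnd3, -1.97 in Kcnj3, 0.89 in Kcnj5 and -1.29 in Kcnv2. Both differences contain the same MerCreMer 4 tamoxifen and 4 control arrays, so they are not independent of each other. Among the 6 wild-type control arrays, the one group large enough for a check of single outlying arrays, none of the 9 genes had one.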

How the results depend on the processing

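The 63 changes (9 genes in 7 comparisons) were computed under up to 37 alternatives, 2270 values in all. Of these, 2130 kept their side of the threshold, 113 lost a call, 27 gained one and 0 called changes turned their sign. In the 4 comparisons with 0 of 9 called, all alternatives gave 0. For 4 tamoxifen against 4 control injections in MerCreMer mice (8 of 9), single arrays left out gave 7 to 8, only the arrays compared gave 1 (Kcnv2, limma adjusted p = 0.0397), and the replicate block gave 7, without Kcnj2 (adjusted p = 0.0565). Within the high side of the array division, alternatives chosen after seeing the data, the count was 1 without sex in the fit and 6 with it; within the low side, where each MerCreMer group is 1 array and the spread comes from the wild-type arrays, it was 5 and 5. Both forms are given because the high side has no male control array, so sex there is estimated from the tamoxifen groups. For the difference from wild type (6 of 9), single arrays left out gave 4 to 8, only the arrays compared 3, females only 1, the replicate block 0 and the low side 4 with sex. For 4 against 1 days (5 of 9), single arrays left out gave 2 to 8, only the arrays compared 0, females only 1, the replicate block 2, the high side 0 and the low side 2. Same-numbered arrays correlated over 0.1 in 7 of 15 pairs (-0.24 to 0.36). Differently numbered arrays were not compared, and replicate 1 was the male sample in each group of 3 arrays. Whether the numbers pair the samples is therefore not settled. Array weights gave smaller falls in MerCreMer mice (Kcnip2 -1.52, Kcnj2 -0.52). Kcnv2 did not pass the stricter filter, and comparisons with wild type could not be fitted on the high side, which holds no wild-type array. The cause of these differences between alternatives was not tested.

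Over all genes, calls for 4 tamoxifen against 4 control injections in MerCreMer mice numbered 2654, with 900 under group weights, 1490 under array weights, 1502 in females, 18 in only the arrays compared, 1655 with the replicate block, 236 or 655 on the high side (without or with sex), 602 or 417 on the low side and 1648 to 3846 with an array left out. For genotype they numbered 77, with 663 under group weights, 1070 under array weights, 12 in females, 280 in only the arrays compared, 1 with the replicate block, 7 with the array division as a block, 13 or 5 on the low side and 10 to 471. For the difference from wild type they numbered 909, with 516 under group weights, 528 in only the arrays compared, 192 in females, 27 with the block, 403 or 316 on the low side and 504 to 2242. For 4 against 1 days they numbered 658, with 406 under group weights, 113 in only the arrays compared, 139 in females, 232 with the replicate block, 411 with no filter, 7 or 4 on the high side, 117 or 137 on the low side and 378 to 1956. In 1 tamoxifen, wild-type tamoxifen and the control comparison 0 to 3 genes were called under every alternative. Low values limit Kcnv2 and Kcna4, which lay near the filter, and on MerCreMer 4 tamoxifen replicate 3 also Kcnd2, Kcnd3, Kcnip2, Kcnj2 and Kcnj3.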
